A study of Mus musculus with 6 samples.

Results

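The 10 genes described here are markers of macrophages together with the genes of complement C1q: Cd68, Cd163, Mrc1, Csf1r, Lyz2, C1qa, C1qb, C1qc, Aif1 and Tyrobp. They were taken by gene symbol from the 19938 genes measured, and each had 1 transcript cluster, the set of probes that the array reads together. The samples were 6 arrays of soleus, a slow postural muscle of the calf, from male C57BL/6 mice of 8 weeks, with 2 arrays in each of 3 groups. No treatment is listed for the control group. In the suspension group the mice had hindlimb suspension, a model of disuse in which the hind legs are raised and bear no load. In the electroacupuncture group hindlimb suspension was combined with electroacupuncture, a current passed through acupuncture needles. No allele or transgene is listed for any group, and the length of suspension and the site of the needles are not given in the sources used here. Nor is it stated whether duplicates stem from different mice, so the p-values measure the spread between arrays, which may be technical.

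Macrophages live in the connective tissue between muscle fibres, clear debris and dead cells, and gather where muscle is damaged and repaired. They depend on the growth factor receptor encoded by Csf1r, carry scavenger receptors on their surface and digest in lysosomes what they take up. C1q is the recognition molecule that opens the classical pathway of complement. It is built from A, B and C chains encoded by separate genes, and tissue macrophages are a main source of it.

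In the data, none of the 10 genes passed the test in any of the 3 comparisons between groups. The signals of most of them were highest on the electroacupuncture arrays, and 8 of the 10 were higher on both electroacupuncture arrays than on both control arrays, as were 21.8% of all genes. The duplicate arrays of the suspension group stood apart: 8 of the 10 genes were over 1.5-fold higher on array 1 than on array 2, against 3.24% of all genes. Most of the 10 genes varied together and they were chosen with earlier results of these data known, so these counts are descriptions only. The soleus is measured here as whole tissue, in which fewer cells of a type and less RNA per cell cannot be told apart.

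The C1q genes lie side by side on mouse chromosome 4 in the RefSeq table (GRCm38.p6), in the order C1qb, C1qc, C1qa, with no other gene of the table within their span. RefSeq start-site sequence of this build was at hand for 7 of the 10 genes. The 250 bases before the start site are shown for 5 of them, 2 of the C1q genes and the 3 surface or lysosomal markers with the widest range over the arrays among those 7, because their signals varied together in the data below. The windows are chr4:136886201-136886450 (C1qb, minus strand), chr4:136892915-136893164 (C1qc, minus strand), chr11:69666171-69666420 (Cd68, minus strand), chr10:117282273-117282522 (Lyz2, minus strand) and chr2:14229164-14229413 (Mrc1, plus strand), written 5′ to 3′ along the gene. Capitals mark GAGGAA, a core of sites for the macrophage factor PU.1, GGAAGT, a core of the wider ETS family, and TGAGTCA, a site for AP-1, each searched on both strands.
C1qb: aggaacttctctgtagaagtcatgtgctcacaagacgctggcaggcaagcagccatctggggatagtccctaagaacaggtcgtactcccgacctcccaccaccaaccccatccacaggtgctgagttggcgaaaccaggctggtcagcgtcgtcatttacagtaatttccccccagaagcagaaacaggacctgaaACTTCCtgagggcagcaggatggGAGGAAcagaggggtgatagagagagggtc
C1qc: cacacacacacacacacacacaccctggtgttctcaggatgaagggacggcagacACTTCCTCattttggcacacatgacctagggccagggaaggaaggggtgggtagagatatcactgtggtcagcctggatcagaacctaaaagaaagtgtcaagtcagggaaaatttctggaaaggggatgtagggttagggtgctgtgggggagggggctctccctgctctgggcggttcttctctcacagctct
Cd68: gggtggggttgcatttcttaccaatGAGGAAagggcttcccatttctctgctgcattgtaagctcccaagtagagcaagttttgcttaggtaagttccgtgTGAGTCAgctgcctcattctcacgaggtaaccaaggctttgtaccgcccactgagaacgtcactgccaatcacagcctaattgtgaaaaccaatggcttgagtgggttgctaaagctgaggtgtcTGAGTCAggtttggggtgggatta
Lyz2: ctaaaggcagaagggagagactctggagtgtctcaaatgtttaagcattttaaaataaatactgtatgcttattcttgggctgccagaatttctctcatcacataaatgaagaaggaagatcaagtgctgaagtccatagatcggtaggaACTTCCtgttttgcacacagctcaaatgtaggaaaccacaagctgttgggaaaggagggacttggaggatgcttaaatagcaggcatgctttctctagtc
Mrc1: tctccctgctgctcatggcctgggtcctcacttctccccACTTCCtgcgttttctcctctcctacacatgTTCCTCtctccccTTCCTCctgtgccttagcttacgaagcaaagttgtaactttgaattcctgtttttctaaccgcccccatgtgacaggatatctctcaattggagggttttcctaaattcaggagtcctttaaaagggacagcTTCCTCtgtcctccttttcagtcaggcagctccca
The motif GAGGAA was found in 5 of the 7 windows, against 23.3% of 32851 windows of the same length in the RefSeq table. GGAAGT was in 4 of the 7, against 19.7%, and it overlaps GAGGAA in the C1qc window. The AP-1 motif TGAGTCA was in 1 of the 7, that of Cd68, which holds it at 2 places, against 4.46%. Of the windows not shown, that of Aif1 holds GAGGAA and that of Cd163 holds none of the motifs. Yet the array values of Cd163 were like those of the other members (correlation 0.84) and those of Aif1 were not (-0.31). The motifs were chosen with the sequences in view, and a match describes the letters only.

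Values below are log2 RMA signals, so that a difference of 1 is 2-fold, given for arrays 1 and 2 of each group in that order. Levels are compared between arrays for the same gene, not between genes. As a measure of background, the means of 1027 olfactory receptor genes had a 95th percentile of 3.50. Of the 10 genes, 9 lay above 3.50 on all 6 arrays. Aif1, which encodes an actin-bundling protein of activated macrophages, lay below it on all 6, at 2.43 and 2.67 in control, 2.64 and 3.01 in suspension and 2.44 and 2.79 in the electroacupuncture group. Its values are therefore not above background, and its order of the arrays differed from that of the other markers.

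**Figure D1:**
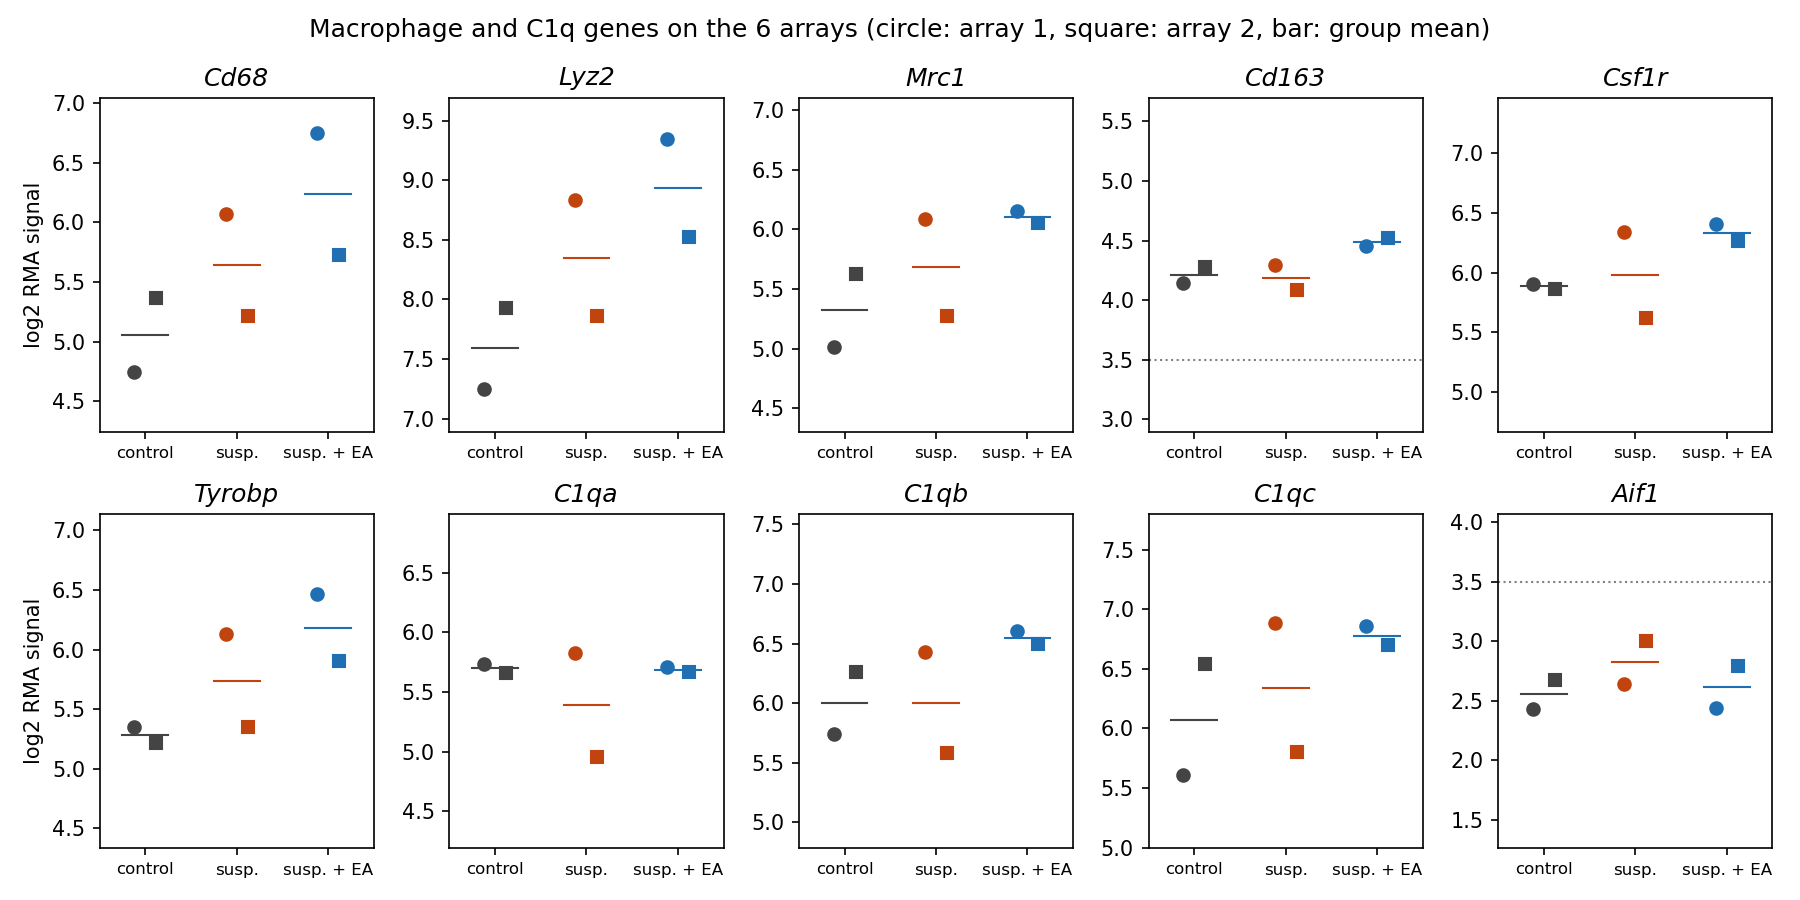
Log2 RMA signal (vertical axis) of each of the 10 genes on the 6 arrays of the control, suspension (susp.) and electroacupuncture (susp. + EA) groups, with circles for array 1, squares for array 2, a bar for the group mean and a dotted line at 3.50, the olfactory receptor 95th percentile, where it falls in the panel. All panels span the same height, and suspension array 1 lies above array 2 for every gene but Aif1.

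The lysosomal markers had the largest differences. Lyz2, which encodes the lysozyme of myeloid cells, had signals of 7.25 and 7.93 in control, 8.83 and 7.86 in suspension and 9.34 and 8.52 in the electroacupuncture group. Both electroacupuncture arrays were above both control arrays, while suspension array 2 lay between the control arrays. The electroacupuncture group exceeded control by 1.35 ± 0.36 log2 (difference ± SE, n = 2 and 2; 95% interval 0.52 to 2.17), or 2.54-fold, with an adjusted p of 0.147 in limma. Suspension exceeded control by 0.76 ± 0.36 (adjusted p = 0.438), and the electroacupuncture group exceeded suspension by 0.59 ± 0.36 (adjusted p = 1.00).

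Cd68, which encodes a lysosomal membrane glycoprotein used to stain macrophages, had signals of 4.74 and 5.37 in control, 6.07 and 5.21 in suspension and 6.75 and 5.72 in the electroacupuncture group. Its arrays took the same order as those of Lyz2, with electroacupuncture array 1 highest, suspension array 1 next and control array 1 lowest. The difference between the electroacupuncture group and control was 1.18 ± 0.37 (interval 0.33 to 2.03; limma adjusted p = 0.219), and it was 0.67 without electroacupuncture array 1. Suspension lay 0.59 ± 0.37 above control and the electroacupuncture group 0.59 ± 0.37 above suspension. The intervals of both include 0.

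Mrc1 and Cd163 encode scavenger receptors of tissue-resident macrophages, the mannose receptor CD206 and the haemoglobin-haptoglobin receptor. Mrc1 had signals of 5.02 and 5.63 in control, 6.09 and 5.27 in suspension and 6.16 and 6.05 in the electroacupuncture group. Here the electroacupuncture arrays were close to each other and suspension array 1 was close to them, while suspension array 2 lay between the control arrays. The difference from control was 0.78 ± 0.28 in the electroacupuncture group (interval 0.15 to 1.41; limma adjusted p = 0.272) and 0.36 ± 0.28 in suspension (adjusted p = 0.672). Without control array 1 the first of these was 0.47.

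Cd163 varied least, with signals of 4.15 and 4.28 in control, 4.30 and 4.08 in suspension and 4.46 and 4.52 in the electroacupuncture group. Its electroacupuncture arrays lay above the other 4. The differences were small, 0.28 ± 0.16 from control (limma adjusted p = 0.552) and 0.30 ± 0.16 from suspension (adjusted p = 1.00), and suspension differed from control by -0.02 ± 0.16.

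Csf1r encodes the receptor for the macrophage growth factors CSF1 and IL-34, and Tyrobp encodes DAP12, the adaptor that passes on signals from TREM2 and other surface receptors. Csf1r had signals of 5.91 and 5.86 in control, 6.34 and 5.62 in suspension and 6.41 and 6.26 in the electroacupuncture group. The control arrays lay close together and suspension array 2 was the lowest of the 6. The electroacupuncture group lay 0.45 ± 0.22 above control (limma adjusted p = 0.446).

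For Tyrobp the signals were 5.35 and 5.22 in control, 6.13 and 5.35 in suspension and 6.47 and 5.90 in the electroacupuncture group. Suspension array 2 lay at the level of control array 1, and both electroacupuncture arrays were above control. The difference from control was 0.90 ± 0.26 in the electroacupuncture group (interval 0.30 to 1.5; limma adjusted p = 0.181), or 1.87-fold, and 0.45 ± 0.26 in suspension (adjusted p = 0.546).

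Among the C1q chains, C1qb and C1qc had like values over the arrays and C1qa had others. C1qc had signals of 5.61 and 6.54 in control, 6.88 and 5.80 in suspension and 6.86 and 6.70 in the electroacupuncture group. C1qb had 5.74 and 6.26, 6.43 and 5.58, and 6.60 and 6.49 in the same order. For both chains the electroacupuncture arrays lay above the control arrays, and the arrays of control and of suspension were spread further apart than those of the electroacupuncture group.

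C1qa had signals of 5.74 and 5.66 in control, 5.82 and 4.95 in suspension and 5.71 and 5.66 in the electroacupuncture group. All arrays but suspension array 2 lay within a narrow band, and the control and electroacupuncture groups overlapped. Against control the electroacupuncture group differed by -0.01 ± 0.25 for C1qa (interval -0.57 to 0.55), 0.55 ± 0.27 for C1qb (-0.06 to 1.16) and 0.70 ± 0.36 for C1qc (-0.12 to 1.53), with limma adjusted p of 0.994, 0.459 and 0.487. Without control array 1 the differences were 0.29 for C1qb and 0.24 for C1qc, and without control array 2 that of C1qc was 1.17. Suspension differed from control by -0.31 ± 0.25, 0.00 ± 0.27 and 0.27 ± 0.36. The difference between the chains was not tested, and their intervals overlap.

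Across the list, the limma test over 6 arrays called none of the 10 genes in suspension minus control, where 1.05% of all genes were called, none in the electroacupuncture group minus suspension, where 0% were, and none in the electroacupuncture group minus control, where 1.03% were. At an unadjusted p under 0.05 there were 0, 0 and 4 members, all 4 higher (Lyz2, Tyrobp, Cd68 and Mrc1), against 6.63%, 1.56% and 6.47% of all genes in that direction. The members' median difference was 0.27, 0.43 and 0.63 in these comparisons, with medians over all genes of 0.01, -0.01 and 0.01. The 3 comparisons share their arrays, so these medians are not independent of each other.

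The count of members whose groups did not overlap and were higher was 0 of 10 in suspension minus control, 2 of 10 (Cd163 and C1qb) in the electroacupuncture group minus suspension and 8 of 10 in the electroacupuncture group minus control, against 21.3%, 15.4% and 21.8% of all genes. For the last comparison the 2 exceptions were C1qa and Aif1. For none of the 10 did any pair of group means differ at the threshold. The values for suspension rest on which of its arrays is used. Without suspension array 2 the members' median difference from control was 0.61, and without suspension array 1 it was -0.088. For the electroacupuncture group minus suspension, the median was 0.83 without suspension array 1 and 0.035 without suspension array 2. For the electroacupuncture group minus control, the median was 0.38 without control array 1.

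**Figure D2:**
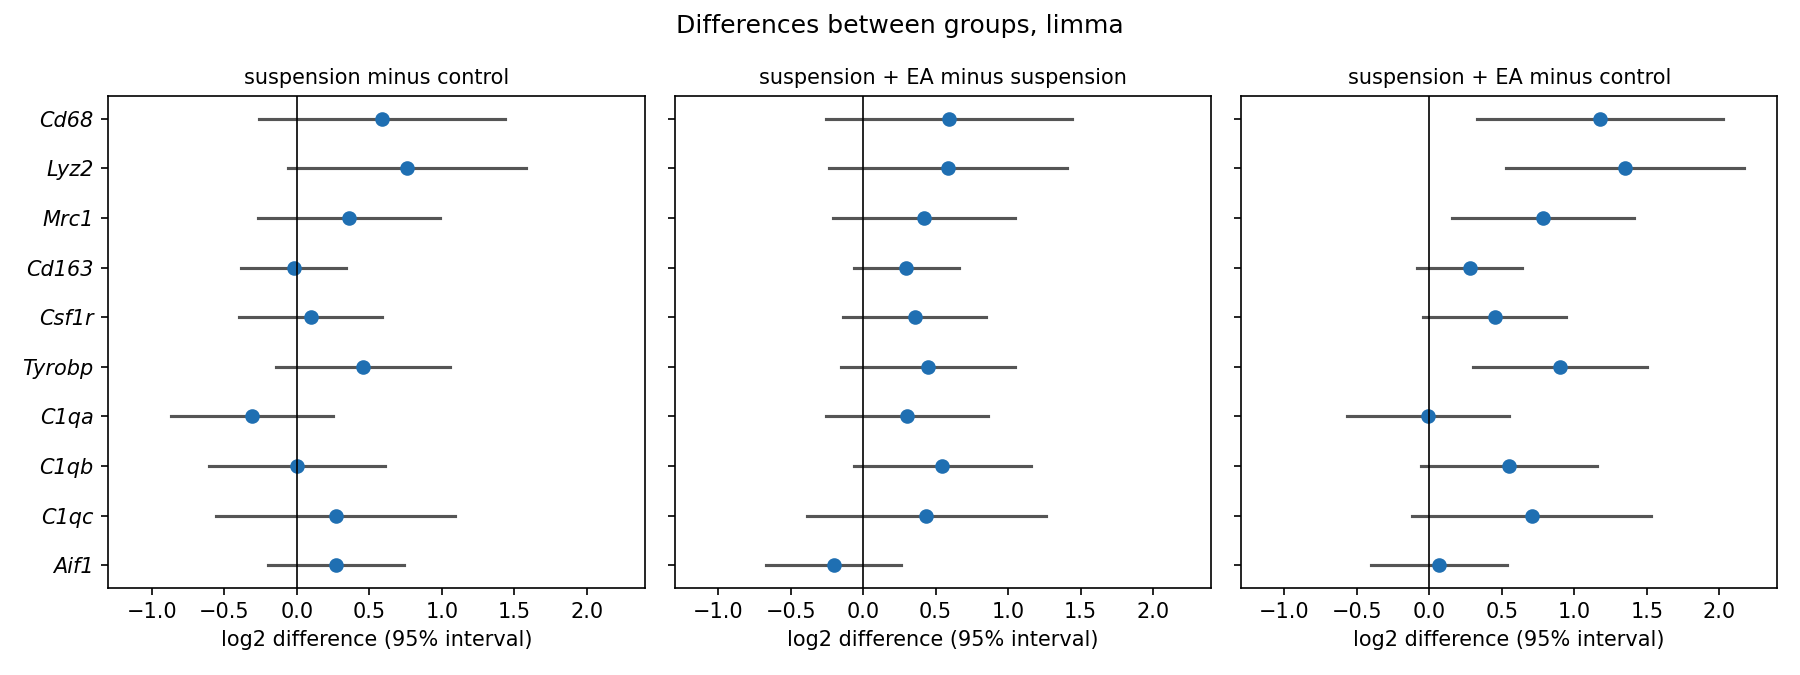
Log2 difference between groups (horizontal axis) for each of the 10 genes in the 3 comparisons, with points for the limma estimate and lines for the 95% interval. For suspension + electroacupuncture (EA) minus control the intervals of Lyz2, Cd68, Tyrobp and Mrc1 lie above 0, and in the other 2 panels every interval includes 0.

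Within groups, the spread of these genes was wide. The pooled SD between duplicate arrays had a median of 0.40 over the 10 genes, against 0.16 over all genes, and it was above the all-gene median for 9 of them, Cd163 being the exception. Lyz2, Cd68 and C1qc had 0.59, 0.60 and 0.59, each wider than in 99.3% of genes by rank. In suspension, array 1 exceeded array 2 by 1.08 for C1qc, 0.97 for Lyz2, 0.87 for C1qa, 0.86 for Cd68, 0.84 for C1qb, 0.81 for Mrc1, 0.78 for Tyrobp and 0.72 for Csf1r. These 8 of 10 genes were past 1.5-fold, as were 3.24% of all genes in that direction. Cd163 differed by 0.22 and Aif1 by -0.36.

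The control arrays ran the other way for part of the list. Array 2 was over 1.5-fold above array 1 for 4 of 10 genes, C1qc (-0.93, array 1 minus array 2), Lyz2 (-0.68), Cd68 (-0.62) and Mrc1 (-0.61), against 3.93% of all genes, while Csf1r, C1qa and Tyrobp differed by 0.04, 0.08 and 0.13. In the electroacupuncture group 2 of 10, Cd68 (1.02) and Lyz2 (0.82), were past 1.5-fold in favour of array 1, against 1.53% of all genes. Tyrobp differed by 0.56, and the C1q chains by 0.04 to 0.16. The lysosomal genes thus differed between the electroacupuncture arrays and the C1q genes hardly did, whereas in suspension both differed. With 1 array on each side these differences have no test.

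**Figure D3:**
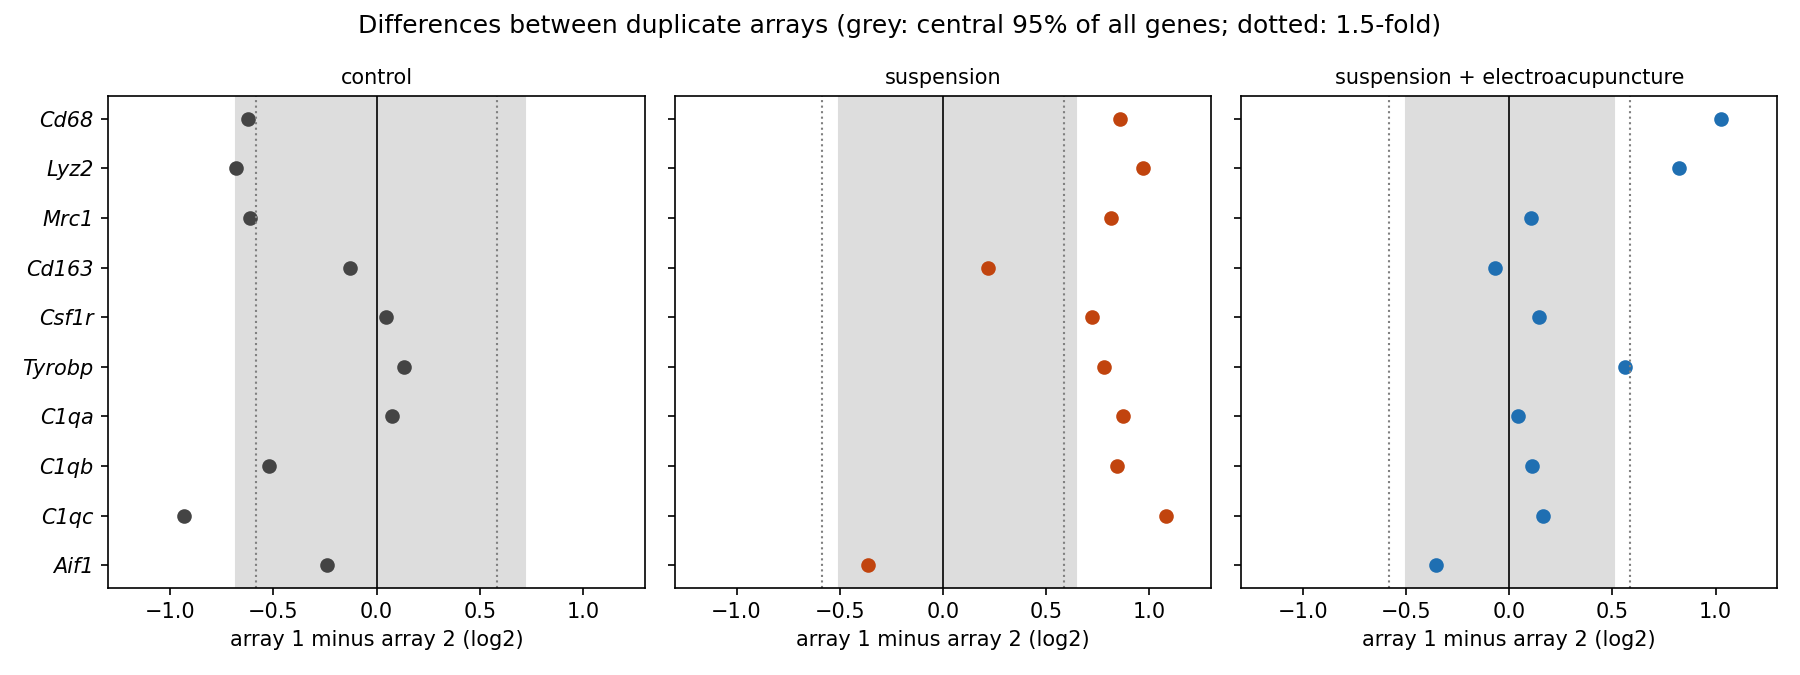
Array 1 minus array 2 (log2, horizontal axis) for the 10 genes in each of the 3 groups, as points, with a grey band for the central 95% of all genes and dotted lines at 1.5-fold in either direction. In suspension 8 points lie beyond the band on the side of array 1, from 0.72 to 1.08.

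Other macrophage genes were read from lists made from their known roles. Of 25 measured genes shared by macrophages and myeloid cells, none passed in any comparison. At an unadjusted p under 0.05, 5, 2 and 11 of them were higher and none lower in suspension minus control, the electroacupuncture group minus suspension and the electroacupuncture group minus control, where 6.63%, 1.56% and 6.47% of all genes were higher at that level. Their medians were 0.27, 0.28 and 0.56, and 16 of 25 were higher without overlap in the last, against 21.8% of all genes. Gpnmb, which encodes a membrane glycoprotein of lysosome-rich macrophages, had signals of 4.20 and 5.02 in control, 5.80 and 5.21 in suspension and 6.08 and 5.57 in the electroacupuncture group. It was above control on all 4 suspended arrays (0.89 ± 0.30 in suspension, limma adjusted p = 0.244, and 1.22 ± 0.30 in the electroacupuncture group, adjusted p = 0.118).

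Itgam, the integrin chain CD11b of myeloid cells, had signals of 3.38 and 3.63 in control, 4.64 and 3.82 in suspension and 5.08 and 4.32 in the electroacupuncture group. Control array 1 lay below 3.50 and control array 2 just above it, so its control level is near background. The difference from control was 1.20 ± 0.31 in the electroacupuncture group (limma adjusted p = 0.131). Cd52, a surface glycoprotein of leukocytes, differed by 0.91 ± 0.24 in that comparison and Cybb, the membrane subunit of the phagocyte oxidase, by 0.95 ± 0.27 (adjusted p = 0.14 and 0.163). In all 4 genes suspension array 1 exceeded array 2 and electroacupuncture array 1 exceeded array 2.

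None of 17 measured genes of resident macrophages passed either, with medians of 0.06, 0.11 and 0.26. In the electroacupuncture group minus control 5 were higher at an unadjusted p under 0.05, against 6.47% of all genes. At that level 2 were lower, against 1264 of all 19938 genes. The lower ones were Mertk, the receptor kinase through which phagocytes bind Gas6, and the lectin gene Cd209f. Mertk differed by -0.39 ± 0.14 (limma adjusted p = 0.282), and by -0.49 ± 0.14 in suspension (adjusted p = 0.175). Cd209f differed by -0.52 ± 0.21 (limma adjusted p = 0.337), but it lay below 3.50 on all 6 arrays, so its values are not above background. Clec10a, a lectin receptor, had 2.76 and 3.38 in control, 3.07 and 2.99 in suspension and 3.91 and 3.89 in the electroacupuncture group, where alone it was above 3.50 (0.83 ± 0.22 from control, limma adjusted p = 0.131). The transcription factor gene Maf differed from control by 0.51 ± 0.16 in suspension and 0.62 ± 0.16 in the electroacupuncture group (adjusted p = 0.201 and 0.128), and F13a1, the coagulation factor XIII chain made by resident macrophages, by 0.90 ± 0.25 in the latter (adjusted p = 0.163). Gas6, the ligand that bridges dying cells to phagocytes, differed by 0.61 ± 0.18 in suspension (adjusted p = 0.173).

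The ligands of CSF1R had small differences. Csf1 lay between 5.42 and 5.82 and Il34 between 4.98 and 5.48 on the 6 arrays, and their differences between groups ran from -0.04 to 0.11 and from 0.02 to 0.05, with SEs of 0.17 and 0.18. Of 14 measured genes listed for CSF1R and TYROBP signalling none passed, with medians of 0.02, 0.05 and 0.06. The means of 6 of the 14 over the arrays lay at or below 3.50, so these medians rest in part on values not above background. This list also holds other myeloid receptor genes, such as Csf3r. Those with the smallest p were Csf3r, the receptor for the neutrophil growth factor G-CSF (-0.56 ± 0.18 in the electroacupuncture group minus control, limma adjusted p = 0.224), the phosphatase gene Inpp5d (0.39 ± 0.16 from suspension, adjusted p = 1.00), the lectin gene Siglech (0.42 ± 0.19 from suspension, adjusted p = 1.00) and Syk, the kinase that acts after DAP12 (0.36 ± 0.17 in suspension minus control, adjusted p = 0.441). The means of Siglech and Csf3r over the arrays lay below 3.50, and they were above it on 3 and 1 of the 6 arrays. Csf3r had 3.15 and 2.85 in the electroacupuncture group, so its difference rests on values below background. Spi1, which encodes PU.1, had 3.93 and 4.21 in control, 4.46 and 4.17 in suspension and 4.91 and 4.15 in the electroacupuncture group, and its groups overlapped.

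Of 21 other measured complement genes none passed, and their medians were 0.05, 0.00 and -0.05. C1ra and C1s1, the proteases that C1q activates, differed by 0.04 ± 0.17 and -0.52 ± 0.30 in the electroacupuncture group minus control (limma adjusted p = 0.961 and 0.555), and C1s1 had 5.88 and 4.86 on suspension arrays 1 and 2. The C1 inhibitor gene Serping1 had 9.19 and 9.23 in control, 9.86 and 8.97 in suspension and 9.51 and 9.38 in the electroacupuncture group, so it too was higher on suspension array 1. C3ar1, the receptor for the fragment C3a on myeloid cells, had 4.95 and 5.15, 5.58 and 5.13, and 6.77 and 5.54, a difference from control of 1.10 ± 0.34 (adjusted p = 0.206).

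Properdin (Cfp), which stabilizes the alternative convertase, differed from control by 0.50 ± 0.15 in the electroacupuncture group (limma adjusted p = 0.208). The decay-accelerating factor gene Cd55 differed from control by -0.63 ± 0.16 in suspension (limma adjusted p = 0.114) and by -0.16 ± 0.16 in the electroacupuncture group (adjusted p = 0.765). From suspension the electroacupuncture group differed by 0.47 ± 0.16 for Cd55, which did not pass the threshold. Cd93, an endothelial and myeloid receptor once taken for a C1q receptor, differed from control by -0.61 ± 0.13 in the electroacupuncture group (limma adjusted p = 0.0667).

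The lists for activation differed among themselves. Of 14 measured genes of monocytes and macrophage activation 7 lay at or below 3.50 and none passed. They form a mixed list, with Arg1 and Il10 beside Tnf and Il1b, and their medians were 0.03, 0.05 and 0.14. In the electroacupuncture group minus control 8 of the 14 were higher and 6 lower, where 9762 of 19938 genes were lower. Among the higher were Chil3 (0.39 ± 0.18, at 1.98 or less on all arrays) and the resistin-like gene Retnla (0.48 ± 0.31). Among the lower were Il10 (-0.34 ± 0.18, at 2.23 or less on all arrays) and fibronectin (Fn1, -0.65 ± 0.72). The summed signal of the list followed Fn1, a matrix gene that fibroblasts also make, with 10.85 and 7.92 on suspension arrays 1 and 2. The 9 measured genes of MHC class II presentation and costimulation had medians of 0.32, -0.11 and 0.19, 7 of them above 3.50, and Cd74, the invariant chain, had 6.59 and 7.04 in control, 7.71 and 6.81 in suspension and 7.39 and 6.92 in the electroacupuncture group.

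Of 11 neutrophil markers 9 and of 12 lymphocyte markers 10 lay at or below 3.50, as did 4 of 8 dendritic and 3 of 7 mast cell markers. None of these 4 lists had a member past the threshold in any comparison, and their medians lay between -0.02 and 0.17.

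**Figure D4:**
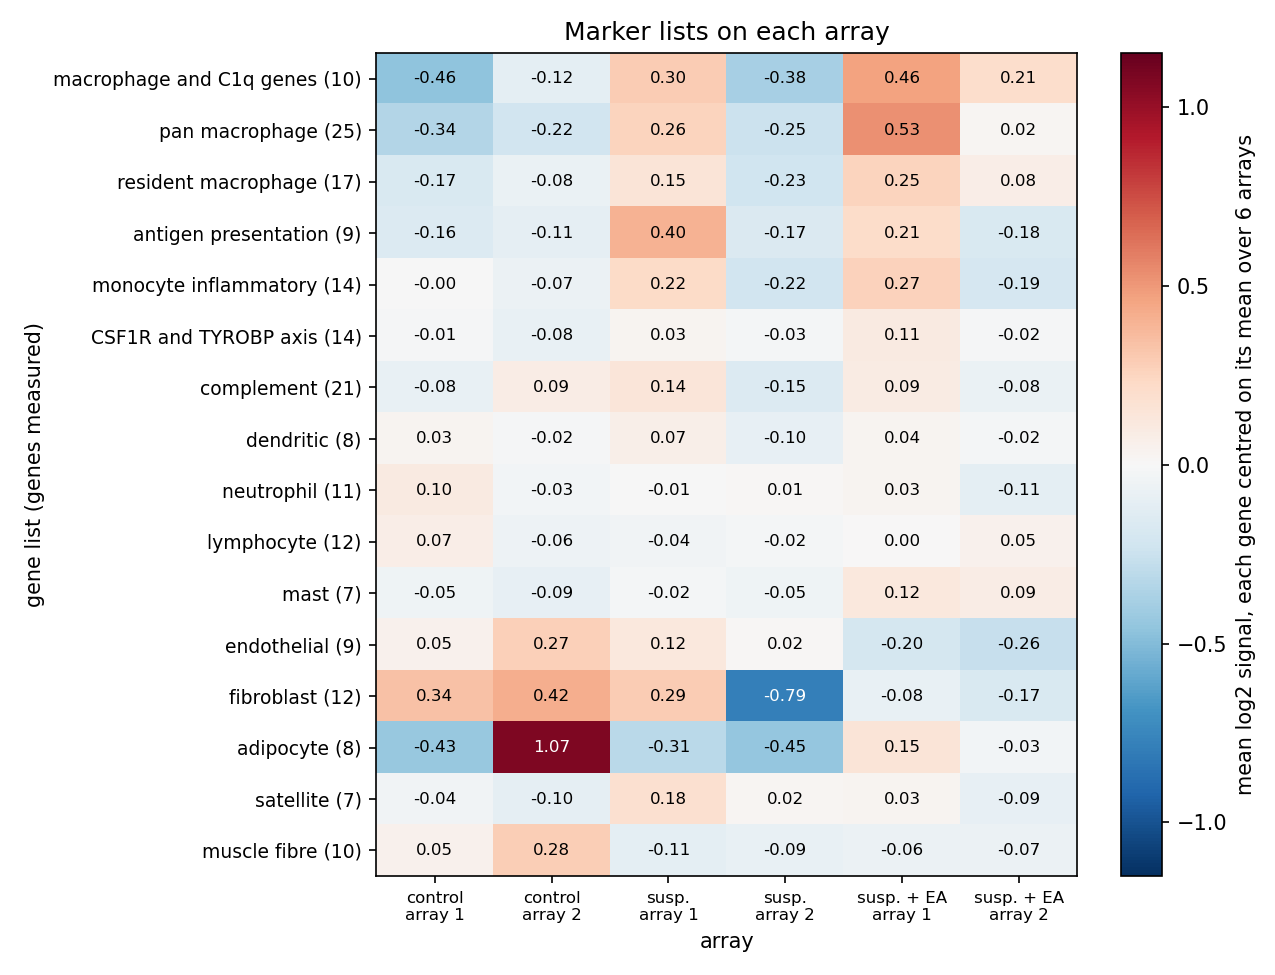
Mean log2 signal of each gene list (rows, with the number of genes measured) on the 6 arrays (columns), after each gene was centred on its mean over the arrays; red is above and blue below that mean. The macrophage and C1q genes lie at -0.46 and -0.12 in control, 0.30 and -0.38 in suspension (susp.) and 0.46 and 0.21 in the electroacupuncture group (susp. + EA), and the fibroblast list shares the low value of suspension array 2, at -0.79.

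Markers of other tissue cells also differed between duplicates. The 12 fibroblast and tendon markers were all measured and above 3.50, and 7 of 12 were over 1.5-fold higher on suspension array 1 than on array 2, against 3.24% of all genes. Their summed linear signal was 6669 on both control arrays, 4473 to 6503 in suspension and 6374 to 6499 in the electroacupuncture group. Gene by gene, 8 of 12 were lower and 4 higher in the electroacupuncture group minus control, where 9762 of 19938 genes were lower. The median there was -0.27, with a range from -1.84 for Col1a1 to 0.45 for Dcn. Of 9 adipocyte markers 8 were measured, all 8 higher on control array 2, with sums of 2452 to 3988 in control, 2329 to 2415 in suspension and 2398 to 2582 in the electroacupuncture group. The summed signal of the 10 macrophage and C1q genes was 490.4 to 676.1, 557.9 to 1029 and 898.0 to 1295 in these groups. Such sums give most weight to the genes of highest signal: Dcn among the fibroblast markers, Lpl among the adipocyte markers and Lyz2 among the 10 genes. The part of the fibroblast and adipocyte signal in the macrophage values was not tested.

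The 10 muscle fibre markers, among them the slow myosin gene Myh7 (11.62 to 12.02) and the muscle creatine kinase gene Ckm (12.87 to 13.39), were high on all arrays and had a median difference between -0.12 and 0.03. The endothelial list, of 9 measured genes, had a median of -0.24 in the electroacupuncture group minus control, and the VEGF receptor gene Kdr fell there by 1.28 ± 0.17 (limma adjusted p = 0.0135). Beside Kdr, the tendon marker Tnmd and the fast IIA myosin gene Myh2 were the listed genes past the threshold, both lower than control in both suspended groups.

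Of the 10 genes, 8 had like values over the arrays, and C1qa and Aif1 had not. Against the mean of the other 9, each centred, the 6 array values of Mrc1 had a Pearson correlation of 0.98, those of Lyz2 0.95, C1qc and C1qb 0.93, Cd68 0.92, Csf1r 0.90, Tyrobp 0.88, Cd163 0.84, C1qa 0.44 and Aif1 -0.31. These are descriptions over 6 arrays that share 3 groups. Electroacupuncture array 1 was the highest of the 6 for 6 of the 10 genes, and control array 1 or suspension array 2 was the lowest for 9. Outside the lists, the 10 genes above background whose values were most like the members' mean were Arsk, Tmem238, Tom1l1, Rasd1, Hhipl1, Gpr6, Alg2, Rbm10, Map1s and Sardh, with correlations of 0.97 to 0.99. The ranges of these 10 over the arrays were 0.20 to 0.57, against 0.44 to 2.10 for the members. Of 13572 genes outside the lists and above background, 153 had a correlation above 0.9. Fcer1g, the Fc receptor chain that like DAP12 is an adaptor with an activation motif, was the most alike among the listed genes, at 0.99 with a range of 1.46, and had 5.39 and 6.10 in control, 6.57 and 5.73 in suspension and 6.86 and 6.43 in the electroacupuncture group.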

How the data were processed

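RNA of whole soleus (Trizol) was made into biotin-labelled cRNA and read on Affymetrix 1.0 ST arrays. Per the submitters' processing notes, the authors used RMA in Affymetrix Expression Console, with no version listed. The deposited values are log2 signals per transcript cluster, used as they stood, and the genome build of the array design is not given in the sources used here. Of 35556 clusters 21789 had 1 gene symbol, 1621 had several and were left out with the 12146 without a listed gene. Symbols were checked by Entrez ID (21698 matched, 0 changed). For a gene with several clusters the cluster of highest mean stood for it, giving 19938 genes, all of them tested. The number of arrays limits the precision.

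A mean per group was fitted over all 6 arrays with limma 3.58.1 in R 4.3.3, with a variance prior that follows the mean signal (5.88 prior degrees of freedom added to 3 between arrays). Benjamini-Hochberg adjustment ran over all genes, and the threshold was 0.05. The fit was tested on simulated data. Duplicate arrays were compared by difference only.

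The members and lists were chosen with earlier results of these data known. Named were all members, up to 4 genes of each macrophage, complement or signalling list described in detail with the smallest p, every listed gene past the threshold and the 10 genes outside the lists most like the members' mean. Csf1, Il34, Spi1, C1ra, C1s1, Serping1, Fn1, Fcer1g, Mertk, Cd209f, Myh7 and Ckm were named for their role or after their values were seen. Of the smaller lists, fewer genes than the rule allows are named. Alternatives covered the variance prior, array weights, filters on signal, other normalizations, other use of clusters, the compared groups alone, a replicate block and each array left out.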

Additional observations from a re-analysis of the deposited data

How the results depend on the processing

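None of the 10 genes passed the threshold in any of the 18 alternatives and 3 comparisons (531 values, smallest adjusted p 0.0991), and 19 of these values had the opposite sign of the main value. The median of the members in suspension minus control ran from -0.088 without suspension array 1 to 0.61 without suspension array 2, and in the electroacupuncture group minus suspension from 0.83 to 0.035 without the same arrays. In the electroacupuncture group minus control it ran from 0.38 without control array 1 to 0.82 without control array 2. The members higher without overlap in suspension minus control numbered 0 in the main setting, against 21.3% of all genes. They numbered 1 with quantile normalization again, median centring or cyclic loess. In the electroacupuncture group minus suspension they were 2 in the main setting, against 15.4% of all genes, and 1 with the filter at the median signal. The share over all genes was not counted in the other settings. With an array left out, groups overlap less often for any gene, so those counts are not given. Of all genes, 209 were called in suspension minus control, 80 without the trend, 130 with array weights, 1 with every cluster by itself, 68 with the compared groups alone and 16 to 301 with an array left out. In the electroacupuncture group minus suspension none were called (312 higher and 300 lower at an unadjusted p under 0.05 in limma), 1 with the robust prior, 4 with array weights, 3 with the compared groups alone and 0 to 3 with an array left out. In the electroacupuncture group minus control 206 were called, 101 without the trend, 311 with quantile normalization again, 1 with every cluster by itself, 129 with the compared groups alone and 2 to 299 with an array left out. With the replicate number as a block 102 and 127 genes were called in suspension and the electroacupuncture group minus control, and no member was. The array labels do not state whether same-numbered arrays were handled together, and this was not tested. The deviations of same-numbered arrays from their group means correlated at -0.16, 0.02 and -0.02, which does not settle it for the 10 genes. Array 1 was above array 2 for 9 of the 10 in suspension, 8 with electroacupuncture and 3 among controls. A fit without 1 array assumes that the lone array of its group varies like the others. Apart from the loss of Cd163 and Aif1 to the filters on signal, the cause of these changes was not tested.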
